A study of Mus musculus with 24 samples.

Results

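Mid-day was compared with mid-night in the retinal pigment epithelium (RPE) of mice in which Bmal1 had been deleted from RPE cells. The comparison used 6 of the 24 libraries of the study, 3 from ZT7 and 3 from ZT19 of RPE Bmal1 KO, where ZT is the number of hours since lights-on in a cycle of 12 h light and 12 h dark. Of 53700 genes in the table, 48091 lie on autosomes, and 20500 of these had enough counts in the 6 libraries to be tested. The mice carried Rpe-CRE (Vmd2-rtTA/TetO-cre) with Bmal1 fl/fl on C57BL/6 and were 12 to 16 weeks old. The cre recombinase is switched on by doxycycline, under the Vmd2 promoter of RPE cells, and the diet was given from day 60 to day 74 after birth. The methods give a control diet to RPE Bmal1 WT, used here for comparison, with 3 mice at each of the same times, whereas the sample records list doxycycline food for all samples, so that the genotypes are those of the labels. A library came from 1 mouse, with its 2 RPE isolates pooled. RPE cells were shaken off the back of the eye by sonication, and choroid and sclera lay beneath them, so that a difference between times can come from more RNA per cell or from more cells of a kind, which cannot be told apart in bulk RNA.

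The circadian clock is a loop of transcription. BMAL1 (gene Arntl) pairs with CLOCK or NPAS2 and switches on genes with E-box sequences, among them the period, cryptochrome and Nr1d genes. PER and CRY proteins then hold the pair back, the NR1D (REV-ERB) proteins repress Arntl, Npas2, Nfil3 and Cry1, and the ROR proteins act on the same elements as activators. DBP, TEF and HLF activate, and NFIL3 represses, through D-box sequences. In the RPE this clock is known for timing the daily uptake of outer segments shed by photoreceptors. Loss of BMAL1 removes the activator of the loop. The paper reports that BMAL1 protein in RPE Bmal1 KO was reduced rather than absent, in a mosaic pattern. Among several points on why no harm was seen, it proposes that the RPE cells keeping BMAL1 may still drive rhythms in the whole tissue. Another is that clocks in neighboring cells may soften the loss. The paper also cites reports of rhythmic gene expression in light-dark cycles without a working clock. The comparison of a time of high with a time of low activator output asks how far clock genes still differ in RPE with reduced BMAL1.

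The promoters of genes that the comparison turns on were read from RefSeq (GRCm38.p6, the mm10 assembly) as windows of 300 bases, 250 before and 50 after the start of transcription, along the strand of the gene. Shown are those of Nr1d1, Dbp and Chil1, the genes that passed the test once replicate numbers were treated as pairs, and of Ciart, Per3, Cry1 and Arntl, clock genes whose libraries did not overlap between ZT7 and ZT19 and whose window holds a string searched. These last were thus picked for a match, and of the tested clock genes without overlap the windows of Dbp and Nr1d2 hold none of the strings, and those of Tef, not shown, hold an E-box. Capitals mark, on either strand, CACGTG (E-box), CACGTT (its E-prime form), TTATGTAA (D-box) and the ROR and REV-ERB element, searched as AAN or TAN followed at once by TAGGTCA or TGGGTCA, with N as any base. The 2 E-box strings share their core letters, but no match of one is a match of the other.
Nr1d1: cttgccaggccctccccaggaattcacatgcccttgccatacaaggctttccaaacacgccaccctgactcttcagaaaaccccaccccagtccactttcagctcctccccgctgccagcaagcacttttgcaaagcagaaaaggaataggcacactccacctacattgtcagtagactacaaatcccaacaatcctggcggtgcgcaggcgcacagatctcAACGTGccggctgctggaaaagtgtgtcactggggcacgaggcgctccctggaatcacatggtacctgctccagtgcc
Dbp: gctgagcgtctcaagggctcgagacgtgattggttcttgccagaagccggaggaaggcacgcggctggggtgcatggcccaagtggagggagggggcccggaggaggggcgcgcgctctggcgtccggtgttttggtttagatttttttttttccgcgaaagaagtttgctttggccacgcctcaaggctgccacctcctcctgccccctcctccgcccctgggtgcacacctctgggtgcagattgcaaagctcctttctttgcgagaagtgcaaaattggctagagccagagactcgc
Ciart: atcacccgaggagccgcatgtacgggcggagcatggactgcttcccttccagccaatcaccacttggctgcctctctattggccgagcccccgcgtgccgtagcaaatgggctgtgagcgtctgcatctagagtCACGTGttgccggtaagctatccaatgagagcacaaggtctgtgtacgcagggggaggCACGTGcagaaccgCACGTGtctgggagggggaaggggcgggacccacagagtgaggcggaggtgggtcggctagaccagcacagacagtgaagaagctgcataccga
Per3: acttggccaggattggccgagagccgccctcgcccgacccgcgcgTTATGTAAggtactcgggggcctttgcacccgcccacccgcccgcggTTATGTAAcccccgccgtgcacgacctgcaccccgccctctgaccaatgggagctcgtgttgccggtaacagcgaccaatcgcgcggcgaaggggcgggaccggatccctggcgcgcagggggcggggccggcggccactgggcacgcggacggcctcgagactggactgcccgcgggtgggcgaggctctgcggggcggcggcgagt
Cry1: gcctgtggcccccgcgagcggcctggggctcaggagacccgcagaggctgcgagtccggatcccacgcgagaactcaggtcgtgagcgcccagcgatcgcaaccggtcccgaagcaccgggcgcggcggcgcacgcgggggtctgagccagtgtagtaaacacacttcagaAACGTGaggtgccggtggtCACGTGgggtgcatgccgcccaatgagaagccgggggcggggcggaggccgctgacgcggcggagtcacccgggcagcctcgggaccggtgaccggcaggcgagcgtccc
Arntl: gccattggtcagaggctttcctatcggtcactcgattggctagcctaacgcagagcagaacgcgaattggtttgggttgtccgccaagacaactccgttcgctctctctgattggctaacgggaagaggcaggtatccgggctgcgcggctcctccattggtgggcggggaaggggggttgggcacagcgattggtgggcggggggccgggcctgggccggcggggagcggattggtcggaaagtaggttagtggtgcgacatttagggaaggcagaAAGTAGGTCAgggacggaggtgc
Chil1: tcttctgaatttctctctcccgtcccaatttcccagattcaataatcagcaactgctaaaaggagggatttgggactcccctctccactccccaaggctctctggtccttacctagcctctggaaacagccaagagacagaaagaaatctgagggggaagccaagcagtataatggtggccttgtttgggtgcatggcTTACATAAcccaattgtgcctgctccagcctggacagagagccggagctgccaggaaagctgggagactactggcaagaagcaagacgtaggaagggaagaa
The windows lie at chr11:98775328-98775627 (minus strand), chr7:45704997-45705296 (plus), chr3:95882179-95882478 (minus), chr4:151044616-151044915 (minus), chr10:85185005-85185304 (minus), chr7:113207261-113207560 (plus) and chr1:134181906-134182205 (plus), in the order shown. Arntl has more than 1 annotated start, and the window with a match was printed. The Ciart window holds 3 E-boxes, that of Per3 holds 2 D-boxes, and that of Cry1 holds an E-box and an E-prime box. The Arntl window holds the ROR and REV-ERB element just after the start, the Nr1d1 window an E-prime box, and the Chil1 window a D-box. Among all 32851 promoter windows, 7.15% hold the E-box string, 4.68% the E-prime form, 0.938% the D-box and 0.688% the ROR and REV-ERB element. Of 36 clock and clock output genes with a window, the same strings were found in 10, 5, 4 and 3 genes. These count genes with a match in any of their windows, and some have more than 1. The shares above count windows, so the 2 are not in the same unit. A match describes letters in a window and is not shown to be a bound site.

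The 6 libraries held 2405576 to 10572612 counts. Markers of the RPE were present in each of them, with Rgr, a retinal opsin of the RPE, at 806 to 1528 CPM, Lrat, which esterifies retinol, at 109 to 349 CPM, and Rpe65, the isomerase of the visual cycle, at 92.2 to 238 CPM. Best1, the chloride channel whose human gene is altered in Best disease, was at 0.630 to 2.86 CPM. The RPE was not the only source of RNA. The skeletal muscle gene Ttn had 9693 to 35596 CPM, and the corneal keratin gene Krt12 had 2631 to 3726 CPM although the front of the eye had been cut away. Of the defining markers of other cell types, Adipoq and Hba-a1 were each at 0 in 1 of the 6 libraries and no other was at 0. Xist was at 4663 to 9354 CPM in 5 libraries and at 147 CPM in replicate 3 of ZT7, where 4 Y-linked genes summed to 264 CPM, so that 1 of the 3 mice at ZT7 was male and none at ZT19. Replicate 1 of ZT7 was the shallowest library and had 757 CPM on olfactory and vomeronasal receptor genes, against 103 to 207 CPM in the other 5. Replicates 1 and 2 of ZT7 also stood apart by low values of some small RNA genes, with Rny1, a Y RNA gene, under 100 CPM in both and above it in the other 4 libraries.

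No autosomal gene passed the threshold between ZT7 and ZT19 in RPE Bmal1 KO (edgeR quasi-likelihood test, Benjamini-Hochberg adjusted p under 0.05; 0 of 20500 genes, 0% called). At an unadjusted p under 0.05 there were 247 genes (1.2% of those tested), 146 of them higher at ZT7 (0.712%) and 101 lower (0.493%). In 519 genes (2.53%) every ZT7 library lay above every ZT19 library, and in 466 (2.27%) every one lay below. The median log2 difference over all genes was -0.0051. Without replicate 3 of ZT7, the male library, 6 genes passed, of which 5 are small nucleolar RNA genes and 1 a pseudogene, all lower at ZT7. Libraries with the same replicate number deviated together from the means of their groups. With the replicate number as a block, 3 genes passed the threshold in edgeR (0.0146% called), Nr1d1, Dbp and Chil1. No label says what a number marks. The pairing was thus taken from these same 6 libraries, and calls made with it are no independent support. Without the block, DESeq2 called the same 3 and limma-trend called 0.

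Clock genes were prominent among the genes with the smallest p. Of 44 genes listed as core clock or clock output, 41 were tested, 10 had an unadjusted p under 0.05 (background 1.2%), 11 had libraries that did not overlap between the times (background 4.8% in either direction), and 9 were among the 50 smallest p of all 20500 genes.

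Nr1d1 encodes REV-ERB alpha, the repressor of Arntl transcription. It had 482, 348 and 445 CPM in the 3 libraries of ZT7 and 62.2, 99.3 and 54.5 CPM in those of ZT19. The groups lay far apart, with the lowest ZT7 library more than 3 times the highest ZT19 library. The mean was 5.90-fold higher at ZT7, a log2 difference of 2.58 (SE 0.30, n = 3 per time, edgeR adjusted p = 0.210), and rose by 2.61 with the block (SE 0.25, adjusted p = 0.0305 from edgeR). The gene spans chr11:98767932-98775333 (mm10, minus strand), and Thra overlaps it on the opposite strand. Whether HTSeq counted by strand is not stated, so the counts of genes with an opposite partner are uncertain. Nr1d2, the paralog encoding REV-ERB beta, had 218, 182 and 169 CPM at ZT7 and 133, 83.9 and 86.3 CPM at ZT19, which did not overlap. Its log2 difference of 0.93 (SE 0.26) did not pass the test with the block either (adjusted p = 0.229 from edgeR).

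Dbp encodes a D-box activator that is a direct target of BMAL1. It had 58.4, 95.8 and 115 CPM at ZT7 and 13.2, 25.5 and 26.1 CPM at ZT19. All ZT7 libraries were above all ZT19 libraries, and replicate 1 was the lowest at both times. The mean was 4.15-fold higher at ZT7, a log2 difference of 2.07 (SE 0.35, edgeR adjusted p = 1), and with the block it rose by 2.08 (SE 0.14, adjusted p = 0.00532 from edgeR). The gene spans chr7:45705088-45710203 (mm10, plus strand), where Sphk2 overlaps it from the opposite strand. Tef, a second D-box activator, had 311, 309 and 325 CPM at ZT7 and 199, 199 and 196 CPM at ZT19. Its libraries were tight within each time and clear of each other, a log2 difference of 0.69 (SE 0.20). Hlf, the remaining activator of this family, had 663, 440 and 398 CPM at ZT7 and 578, 398 and 355 CPM at ZT19, and the times overlapped. Nfil3, the D-box repressor, ran the other way, with 4.90, 3.50 and 6.96 CPM at ZT7 and 6.93, 12.1 and 17.7 CPM at ZT19. It was lower at ZT7 in each numbered pair, although replicate 3 of ZT7 and replicate 1 of ZT19 nearly coincided. Its log2 difference was -1.23 (SE 0.42).

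**Figure D1:**
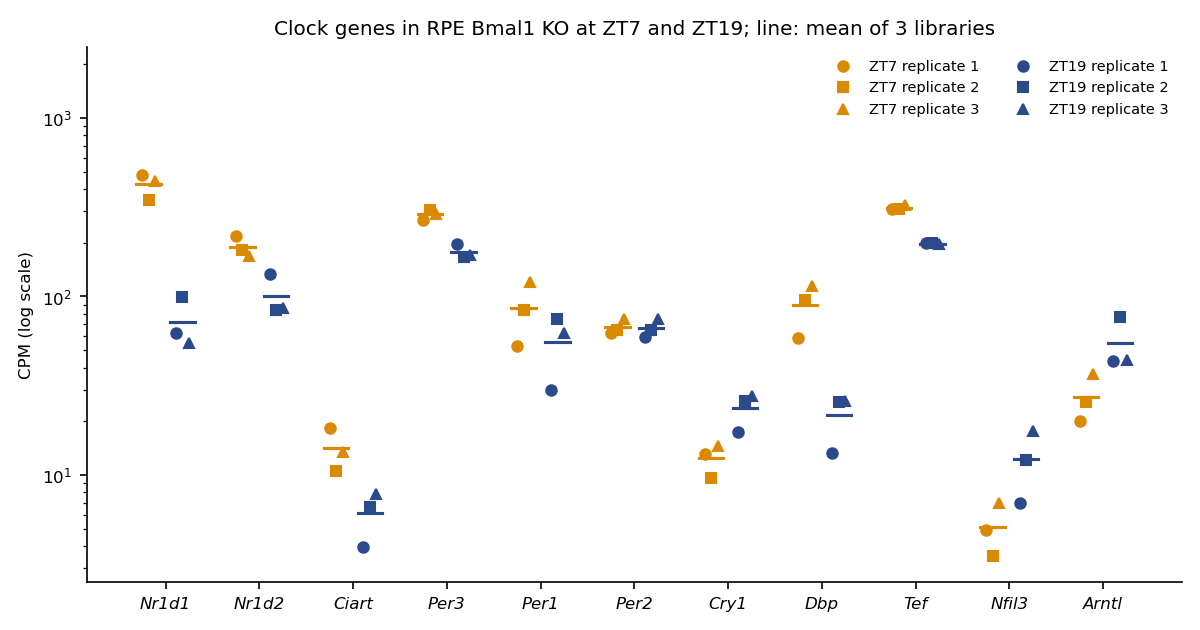
Levels (CPM, log axis) of 11 clock genes by library of RPE Bmal1 KO, with ZT7 in orange, ZT19 in blue, the symbol giving the replicate number and the line the mean of 3 libraries. Nr1d1 and Dbp have the widest gaps between the times, Arntl and Cry1 lie lower at ZT7, and the Per2 libraries of both times coincide between 59.6 and 75.2 CPM.

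Among the inhibitors of the loop, the members did not move as 1 group. Per3 had 270, 307 and 289 CPM at ZT7 and 198, 167 and 171 CPM at ZT19, a log2 difference of 0.71 (SE 0.21) with no overlap. Ciart, a repressor of the CLOCK and BMAL1 pair, had 18.4, 10.5 and 13.4 CPM at ZT7 and 3.94, 6.59 and 7.86 CPM at ZT19. Its libraries did not overlap, the log2 difference was 1.19 (SE 0.36), and an antisense gene overlaps it. Per1 had 53.1, 83.8 and 121 CPM at ZT7 and 29.8, 75.2 and 62.4 CPM at ZT19. Each ZT7 library was above the ZT19 library of its number, but the groups overlapped (log2 difference 0.65, SE 0.39). Per2 had 62.1, 64.7 and 75.2 CPM at ZT7 and 59.6, 64.7 and 74.4 CPM at ZT19, a log2 difference of 0.04 (SE 0.21). Cry1, the cryptochrome that represses latest in the cycle, had the opposite sign, with 13.1, 9.64 and 14.5 CPM at ZT7 and 17.5, 25.8 and 27.7 CPM at ZT19. It did not overlap between the times (log2 difference -0.92, SE 0.29), whereas Cry2 had 60.4 to 89.8 CPM at ZT7 against 50.6 to 74.3 CPM at ZT19. Bhlhe40, a repressor at E-boxes, had 232, 231 and 225 CPM at ZT7 against 151, 175 and 192 CPM at ZT19, without overlap (log2 difference 0.43, SE 0.21), and its paralog Bhlhe41 differed by 0.08 (SE 0.21).

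The activators and the genes under the REV-ERB and ROR element had lower or similar values at ZT7. Arntl had 20.01, 25.8 and 36.8 CPM at ZT7 and 43.5, 77.0 and 43.9 CPM at ZT19. All ZT7 libraries were below all ZT19 libraries, a log2 difference of -0.96 (SE 0.32). The counts cover the whole gene, so they do not show loss of the floxed exon and do not check the genotype, and a gene on the opposite strand overlaps Arntl. Rora and Rorb, which encode ROR proteins, differed by -0.03 (SE 0.28) and -0.67 (SE 0.44), with overlap. Clock had 159 to 243 CPM at ZT7 against 153 to 291 CPM at ZT19, and Npas2, its alternative in the pair, had 12.0 to 12.6 CPM at ZT7 against 12.4 to 21.5 CPM at ZT19. The kinases of the loop in the list lay close to 0, Csnk1d at -0.04 (SE 0.24) and Csnk1e at -0.11 (SE 0.27).

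In the core clock list all 22 genes were tested. There 4 had an unadjusted p under 0.05 with higher values at ZT7 (background 0.712%) and 3 with lower values (background 0.493%). The libraries did not overlap in 5 genes above (background 2.53%) and 3 below (background 2.27%). Of the 22 clock output genes, 19 were tested, with 2 and 1 at an unadjusted p under 0.05 and 2 above and 1 below without overlap. Wee1, a kinase that delays mitosis, was the output gene below, at 20.01, 18.4 and 17.0 CPM against 33.9, 23.6 and 24.7 CPM (log2 difference -0.55, SE 0.25). The other 3 output genes were Gys2, which did not have enough counts, and the X-linked Tsc22d3 and Lonrf3, which the autosomal rule left out. Tsc22d3, a mediator of glucocorticoid action, had 44.1, 46.1 and 53.9 CPM at ZT7 and 59.2, 85.2 and 74.8 CPM at ZT19. Lonrf3 had 6.13, 8.94 and 6.26 CPM at ZT7 and 11.3, 15.3 and 12.4 CPM at ZT19. Neither overlapped between the times, and both lie outside the autosomal test.

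The same contrast in RPE Bmal1 WT used libraries that are not shared with RPE Bmal1 KO. There 3 of 19368 genes passed the threshold (0.0155% called, edgeR), all lower at ZT7 and none of them a clock gene, and 342 had an unadjusted p under 0.05 (1.77%). The count was 7 without replicate 1 of ZT7, which held 2069527 counts, 0 when any one of the libraries numbered 2 or 3 was left out, and 13 with the replicate block, among them Nr1d1 and Dbp. The log2 difference of Nr1d1 was 2.92 (SE 0.42) in RPE Bmal1 WT, that of Dbp 2.19 (SE 0.39), Nr1d2 0.91 (SE 0.25), Ciart 0.95 (SE 0.39), Cry1 -1.26 (SE 0.30) and Arntl -1.24 (SE 0.35). Each of these had the sign it had in RPE Bmal1 KO. The difference itself between the genotypes was -0.35 for Nr1d1 (SE 0.53), -0.13 for Dbp (SE 0.57) and 0.27 for Arntl (SE 0.53), counted as KO minus WT, and no gene of 21878 passed the test of that difference in edgeR (0% called, 88 at an unadjusted p under 0.05, 0.402%), DESeq2 or limma-trend. A gain or loss as large as these errors could not be told from none, so the genotypes are not shown to be alike. As a description across genes, which are not independent replicates and which share libraries, the log2 differences in the 2 genotypes were correlated. Over the 41 clock and output genes Pearson's r was 0.94 and Spearman's rho 0.86, and 31 (75.6%) had the same sign. Over the 19115 genes tested in both, r was 0.31 and rho 0.24, and 10975 (57.4%) had the same sign. The libraries also hold RNA of tissue in which Bmal1 was not targeted, and the part of that tissue in the clock gene values was not tested. The part of RPE cells that kept BMAL1 was not tested either.

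**Figure D2:**
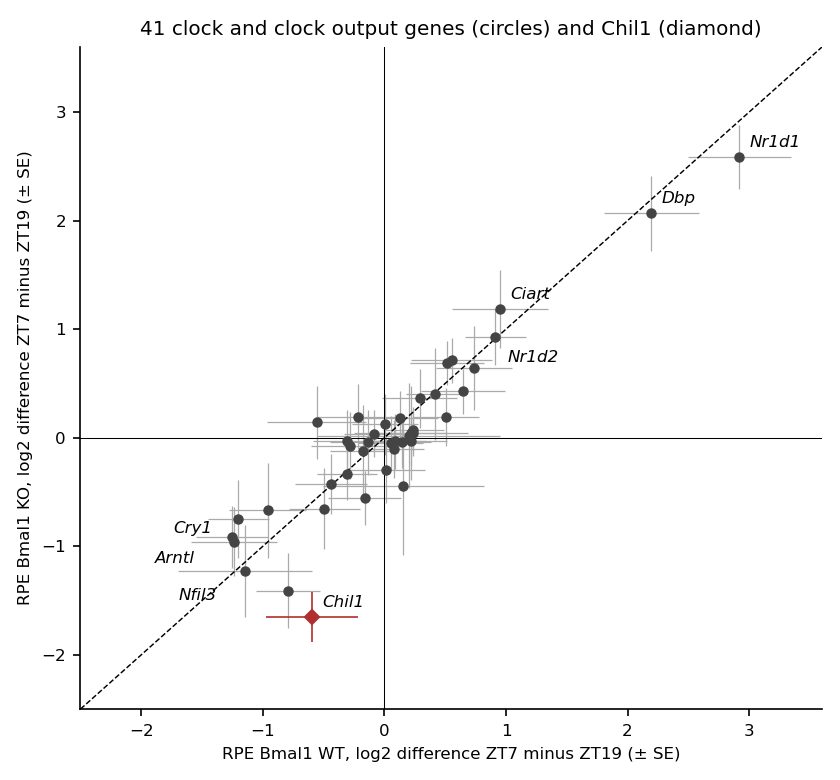
Log2 difference ZT7 minus ZT19 in RPE Bmal1 WT (horizontal) and RPE Bmal1 KO (vertical), with standard errors, for 41 clock and clock output genes and, as a red diamond, Chil1; the dashed line marks equal values. Nr1d1 lies at 2.92 and 2.58, Nfil3 at -1.14 and -1.23, and Chil1 lies below that line (-0.60 and -1.65). Of the 41 genes, 31 have the same sign in both genotypes.

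Chil1, which encodes a secreted chitinase-like protein and is also a gene of the outflow and sclera list, had closely spaced values at ZT7. It had 24.1, 24.5 and 25.1 CPM at ZT7 and 74.2, 95.7 and 65.8 CPM at ZT19. The ZT7 libraries lay close together and well under all ZT19 libraries. The mean was 3.20-fold lower at ZT7, a log2 difference of -1.65 (SE 0.23, edgeR adjusted p = 0.473), and with the block it fell by 1.64 (SE 0.16, adjusted p = 0.0305 from edgeR). In RPE Bmal1 WT the ZT7 libraries had 106, 37.4 and 49.8 CPM and the ZT19 libraries 93.7, 101 and 100 CPM. The overlap came from replicate 1 of ZT7 alone. In that library 41.7% of the counts were mitochondrial, against 5.63% to 17.1% in the other RPE Bmal1 WT libraries of the contrast. The difference between the genotypes was -1.05 (SE 0.46, unadjusted p = 0.0403, adjusted p = 1 from edgeR). The gene spans chr1:134182176-134190181 (mm10, plus strand).

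Values at the remaining times place the contrast within the day. In RPE Bmal1 KO, Nr1d1 had 127 to 197 CPM at ZT1 and 189 to 307 CPM at ZT13, between ZT19 and ZT7 and clear of both. Dbp had 52.8 to 122 CPM at ZT13, which overlapped ZT7, and 19.6 to 43.7 CPM at ZT1, which overlapped ZT19. Per2, with overlapping values at ZT7 and ZT19, had 110 to 160 CPM at ZT13 and 24.3 to 49.2 CPM at ZT1, above and below the values of both times compared. Tef had 346 to 410 CPM at ZT13, above ZT7, and 110 to 184 CPM at ZT1, below ZT19. Arntl had 84.6 to 89.4 CPM at ZT1, and Chil1 had 99.8 to 101 CPM at ZT1 and 38.5 to 50.5 CPM at ZT13. The contrast of ZT7 with ZT19 therefore does not cover the widest gap of the day for Per2, Tef, Arntl or Chil1.

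**Figure D3:**
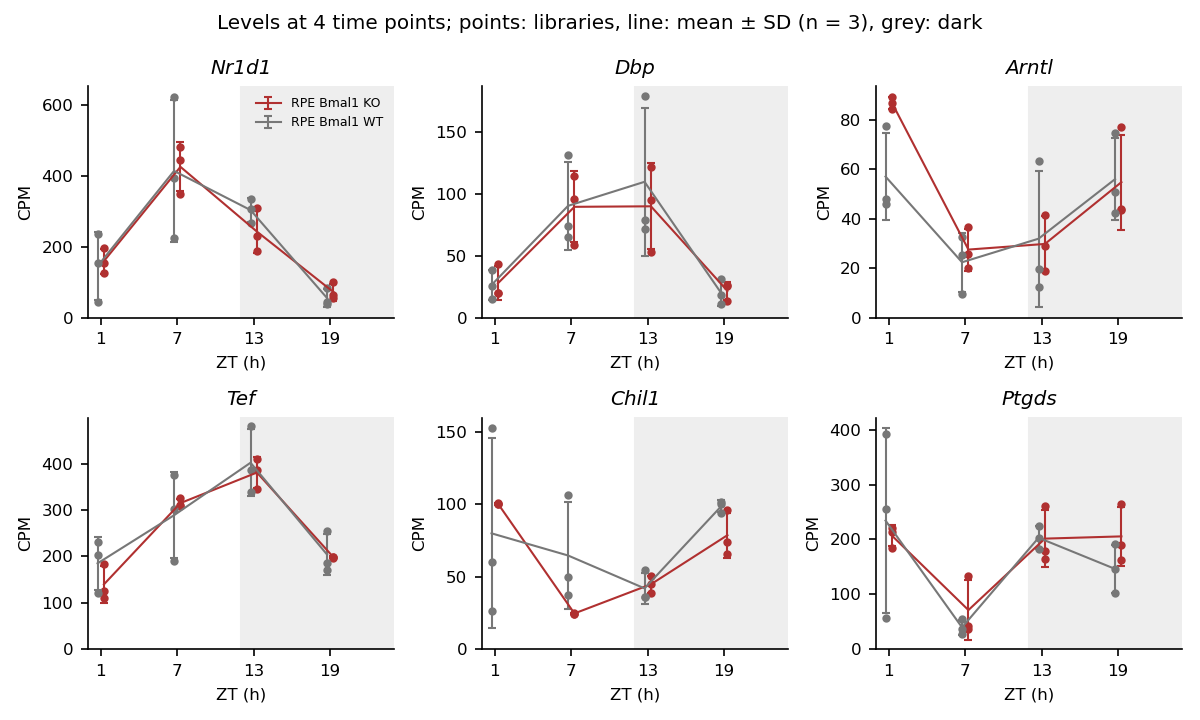
CPM of 6 genes at ZT1, ZT7, ZT13 and ZT19 in RPE Bmal1 KO (red) and RPE Bmal1 WT (grey), with each library as a point, the line through the means and bars of 1 SD (n = 3); the dark phase is shaded. Nr1d1 is highest at ZT7 in both genotypes, and the Chil1 points of RPE Bmal1 KO at ZT7 fall together at 24.1 to 25.1 CPM.

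The other genes with the smallest p that were higher at ZT7, all with an unadjusted p under 0.05 and an adjusted p = 1 (edgeR), included the pseudogene AC170187.1, at 19.6, 32.9 and 23.7 CPM against 11.7, 9.97 and 9.49 CPM. Chst5, a sulfotransferase of the sugar chains of glycoproteins, had 17.6, 24.01 and 20.3 CPM at ZT7 and 10.4, 10.1 and 7.38 CPM at ZT19. Zbtb8b, a zinc finger gene, had 17.5 to 24.9 CPM and 8.76 to 11.5 CPM. Neither overlapped between the times, and their log2 differences were 1.18 (SE 0.27) and 1.104 (SE 0.27). Angptl4, a secreted inhibitor of lipoprotein lipase that glucocorticoids and fasting induce, had 7.76, 15.1 and 9.34 CPM at ZT7 and 3.94, 4.25 and 5.46 CPM at ZT19. Gm49196, Rwdd3, Smok4a, Gm26464 and Enkur completed the 12 with Nr1d1, Dbp and Nr1d2, with log2 differences of 1.16 to 1.95 and no overlap, and of these Gm49196, Gm26464 and Enkur had under 5 CPM in every library.

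Among the genes lower at ZT7, Ptgds, the synthase of prostaglandin D2, had 37.2, 42.9 and 133 CPM at ZT7 and 189, 265 and 162 CPM at ZT19. The times did not overlap, but replicate 3 of ZT7 lay near ZT19. The log2 difference was -1.50 (SE 0.47), and -2.33 (unadjusted p = 4.6e-05, adjusted p = 0.104 from edgeR) without that library, which was also the male one. In RPE Bmal1 WT it was -1.84 (SE 0.31), with 27.3, 37.4 and 54.0 CPM at ZT7 and 103, 145 and 191 CPM at ZT19. Myoc, a secreted protein of the outflow tissue and sclera, had 41.7, 59.1 and 40.9 CPM at ZT7 and 95.3, 118 and 59.8 CPM at ZT19 (log2 difference -0.92, SE 0.29). Creb3l1, a transcription factor of the secretory pathway, had 6.36 to 8.17 CPM and 11.3 to 19.1 CPM. Adamts15, a protease of the matrix, had 5.72 to 8.06 CPM and 13.2 to 16.3 CPM. Slc6a4, the serotonin transporter, was at 0.350 to 0.497 CPM at ZT7 against 1.39 to 2.52 CPM at ZT19, a handful of counts. Among histone genes, Hist1h1a was at 8.17 to 20.5 CPM against 27.4 to 38.5 CPM and Hist2h2ac at 0.817 to 1.29 CPM against 2.97 to 3.78 CPM. The 12 also held Chil1, Cry1, Pnpla3 and Gm37421. None of the genes named here passed the test without the block, and of them Chil1 did with it.

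Genes of lipid synthesis and of fat cells had lower values at ZT7. Of 24 tested in the adipocyte and lipogenesis list, 22 had a negative log2 difference, 3 of them at an unadjusted p under 0.05 (background 0.493%), 0 passed the threshold, and the median was -0.56 against -0.0051 over all genes. Pnpla3, a lipase of lipid droplets that insulin and feeding induce, had 2.45, 2.103 and 5.47 CPM at ZT7 and 12.1, 6.50 and 12.1 CPM at ZT19. It did not overlap between the times (log2 difference -1.51, SE 0.45), with -1.91 (SE 0.51) in RPE Bmal1 WT. The other 2 were G0s2 and Thrsp, named after their values were seen. G0s2, an inhibitor of the lipase that starts the breakdown of stored fat, had 0.408, 2.63 and 3.58 CPM at ZT7 and 6.62, 4.60 and 11.7 CPM at ZT19, without overlap. Thrsp, a regulator of lipogenesis under thyroid hormone, had 8.17, 6.83 and 16.7 CPM at ZT7 and 41.1, 7.02 and 56.4 CPM at ZT19, so that replicate 2 of ZT19 lay with ZT7. Elovl6, a fatty acid elongase, had the smallest p among the higher members, with a log2 difference of 0.11 (SE 0.36). The summed level of the list was 1387, 1291 and 2499 CPM at ZT7 and 3787, 1267 and 3980 CPM at ZT19, again low in replicate 2 of ZT19. The fat cell marker Adipoq ranged from 0 to 23.2 CPM at ZT7 and from 0.607 to 26.3 CPM at ZT19, and the part of fat cells in the list's values was not tested.

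The cholesterol list ran the other way. Of 25 tested, 20 had positive values, with a median of 0.20, and 1 had an unadjusted p under 0.05 (background 0.712% for higher genes). This was Lss, the cyclase that forms lanosterol, at 111, 99.4 and 70.1 CPM at ZT7 and 68.9, 61.8 and 62.3 CPM at ZT19, without overlap (log2 difference 0.56, SE 0.24). The summed level overlapped, at 2064 to 2569 CPM at ZT7 against 2066 to 2095 CPM at ZT19. Abcg1, which exports cholesterol, had the smallest p among the lower members, at -0.19 (SE 0.20).

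**Figure D4:**
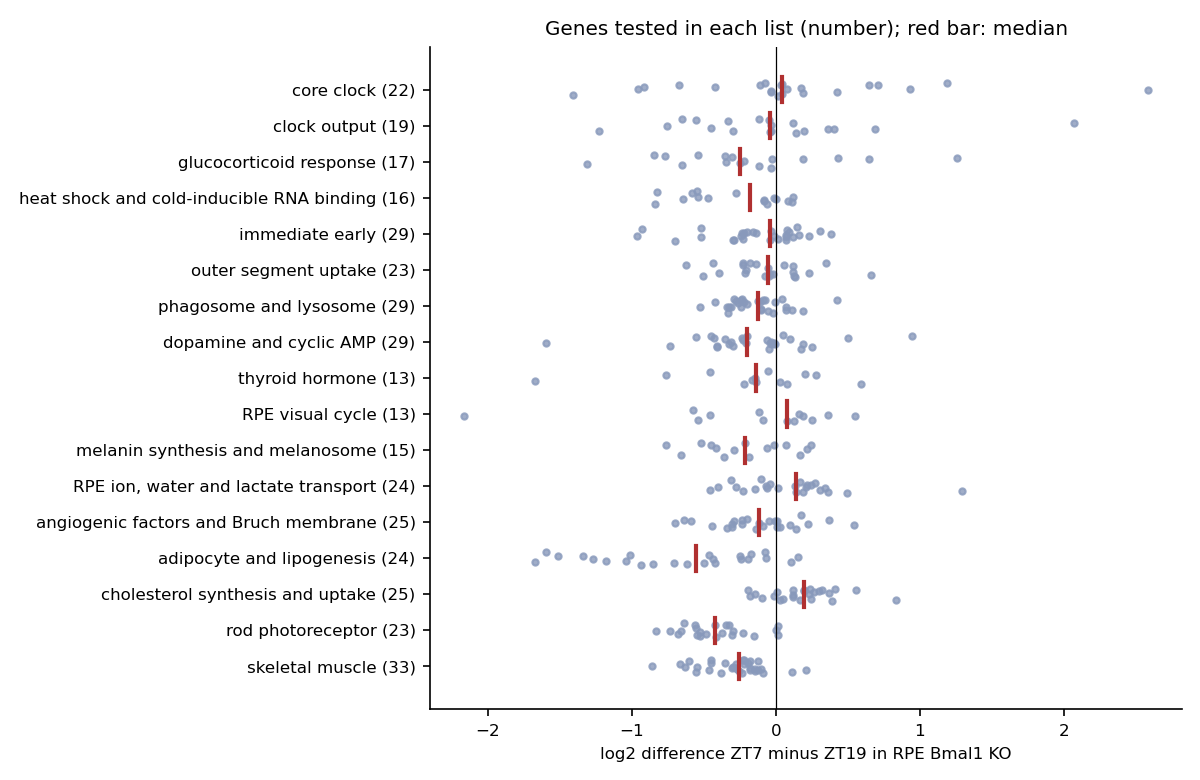
Log2 difference ZT7 minus ZT19 in RPE Bmal1 KO of each tested gene (point) in 17 gene lists, with the number tested in brackets and the median as a red bar. The clock lists have medians near 0 (0.04 and -0.04) with the widest ranges, and the adipocyte and lipogenesis list has the lowest median (-0.56).

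Genes of outer segment uptake had log2 differences of -0.63 to 0.66 between the times. Of 23 tested, 8 had positive and 15 negative values, the median was -0.05, and none had an unadjusted p under 0.05. The libraries did not overlap in 1 gene above (background 2.53%) and 2 below (background 2.27%). Itgb5, the integrin subunit that binds outer segments, had 44.9, 53.1 and 47.5 CPM at ZT7 and 35.3, 50.2 and 50.1 CPM at ZT19, with overlap (log2 difference 0.12, SE 0.23). Rhobtb3 was the higher member with the smallest p (log2 difference 0.35, SE 0.22, no overlap), and Pros1, a ligand of the uptake receptor MERTK, was the lower one (-0.40, SE 0.27). In the phagosome and lysosome list, 23 of 29 had negative values with a median of -0.13, and none had an unadjusted p under 0.05.

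In the dopamine and cyclic AMP list, 22 of 29 had negative values with a median of -0.20. Drd4, the dopamine D4 receptor that in the mouse retina is a gene of photoreceptors, had 3.68, 11.7 and 30.01 CPM at ZT7 and 24.9, 87.9 and 33.6 CPM at ZT19. The groups overlapped (log2 difference -1.60, SE 0.66), with the lowest value in replicate 1 of ZT7 and the highest in replicate 2 of ZT19. Those libraries also had the lowest and the highest summed level of the rod list, 1117 and 10296 CPM, and the part of rods in the value was not tested. Drd2, the dopamine D2 receptor, had 1.63, 2.28 and 6.86 CPM at ZT7 and 3.15, 8.58 and 4.12 CPM at ZT19, with overlap (log2 difference -0.43, SE 0.57; 0.09 without replicate 2 of ZT19). Adcy10, the soluble adenylyl cyclase, had the smallest p among the higher members (0.95, SE 0.47).

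Dio2, the deiodinase that makes active thyroid hormone, had 14.3, 9.81 and 11.9 CPM at ZT7 and 23.2, 15.0 and 23.2 CPM at ZT19. The times did not overlap (log2 difference -0.76, SE 0.29, edgeR adjusted p = 1). In RPE Bmal1 WT the ZT7 libraries had 86.9, 15.1 and 7.77 CPM, the highest in replicate 1, the library rich in mitochondrial counts. The difference between the genotypes was -1.31 (SE 0.94). Of the 13 thyroid hormone genes tested, 8 had negative values, Dio2 and Thrsp with an unadjusted p under 0.05 (background 0.493%), and the median was -0.14. Slco1c1, a carrier of thyroxine, was the higher member with the smallest p (0.59, SE 0.30).

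In the lists of the RPE's own tasks, as among all genes, 0 passed the test (0% called). The visual cycle list had 7 positive and 6 negative values of 13, a median of 0.08 and none at an unadjusted p under 0.05. Lrat had 349, 227 and 159 CPM at ZT7 and 271, 129 and 109 CPM at ZT19, higher at ZT7 in each numbered pair but overlapping (0.55, SE 0.41). Rpe65 had the opposite sign, with 145, 92.2 and 92.8 CPM at ZT7 and 238, 157 and 104 CPM at ZT19, lower at ZT7 in each numbered pair and also overlapping (-0.58, SE 0.34). Rbp4, the carrier of retinol in blood, had at most 5.99 CPM. Of 24 genes for ion, water and lactate transport, 14 had positive values with a median of 0.14 and none had an unadjusted p under 0.05. Cftr, a chloride channel, had 1.23 to 2.45 CPM at ZT7 against 0.315 to 0.959 CPM at ZT19, and Atp1b1, a subunit of the sodium pump, 74.8 to 145 CPM and 104 to 187 CPM. In the melanin and melanosome list 11 of 15 were negative with a median of -0.21. Mlana, a melanosome protein of RPE and choroidal melanocytes, had 14.7, 22.4 and 23.8 CPM at ZT7 and 33.1, 34.4 and 38.0 CPM at ZT19, without overlap (-0.76, SE 0.25), while Rab38, which sorts melanosome enzymes, was at 0.25 (SE 0.28). In the list of angiogenic factors and Bruch membrane, 16 of 25 were negative with a median of -0.11. Eln, which encodes elastin, had 42.9, 55.9 and 47.6 CPM at ZT7 and 53.6, 85.6 and 102 CPM at ZT19 (-0.70, SE 0.28), with overlap between the times, and Lama1, a laminin chain, was at 0.54 (SE 0.33).

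Lists of systemic signals gave few genes apart. In the glucocorticoid list 13 of 17 were negative with a median of -0.25. Angptl4 (1.26, background 0.712%) and Zbtb16 (-0.77, background 0.493%) had an unadjusted p under 0.05, with opposite signs. Per1, which is also in this list, overlapped between the times. In the list of heat shock and cold-inducible genes 12 of 16 were negative with a median of -0.18. Hsph1, a chaperone of the HSP110 family, had 15.5, 19.3 and 19.6 CPM at ZT7 and 28.7, 26.3 and 25.7 CPM at ZT19, without overlap (-0.54, SE 0.22), while Dnaja1 differed by 0.12 (SE 0.26). Immediate early genes were spread about 0, with 12 positive and 17 negative values of 29 and a median of -0.04. Nr4a3, an orphan nuclear receptor, had 19.6, 22.3 and 15.4 CPM at ZT7 and 25.2, 33.3 and 53.9 CPM at ZT19, without overlap (-0.96, SE 0.33), and Ccn1, a matrix protein, was at 0.39 (SE 0.24).

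Transcripts of other cell types differed widely between libraries of 1 time. The rod list, of which 23 of 25 genes were tested, had 21 negative values, a median of -0.42 and no gene at an unadjusted p under 0.05. Its summed level was 1117, 3284 and 8999 CPM at ZT7 and 4750, 10296 and 4133 CPM at ZT19, so that the times overlapped. The skeletal muscle list had 31 negative values of 33 and a median of -0.25, and its sum followed the replicate number, at 19136, 12112 and 47926 CPM at ZT7 and 25083, 15870 and 50301 CPM at ZT19. The fibroblast, sclera and outflow list, which holds Chil1 and Myoc, had 19 negative values of 21 and a median of -0.32, with sums of 3675, 2344 and 1852 CPM at ZT7 and 3771, 3146 and 2329 CPM at ZT19. Of the defining markers of fibroblasts, the collagen genes Col1a1 and Col1a2 were at -0.03 and -0.07, and Dcn, which encodes the matrix proteoglycan decorin, was at -0.32, as was the median of the list. The cornea and epidermis list summed to 11732 to 13891 CPM at ZT7 against 11167 to 12514 CPM at ZT19. Macrophage genes had 17 negative values of 21, a median of -0.28, and sums of 323 to 363 CPM at ZT7 against 382 to 475 CPM at ZT19, which did not overlap. The part of these cell types in the differences of single genes was not tested.

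**Figure D5:**
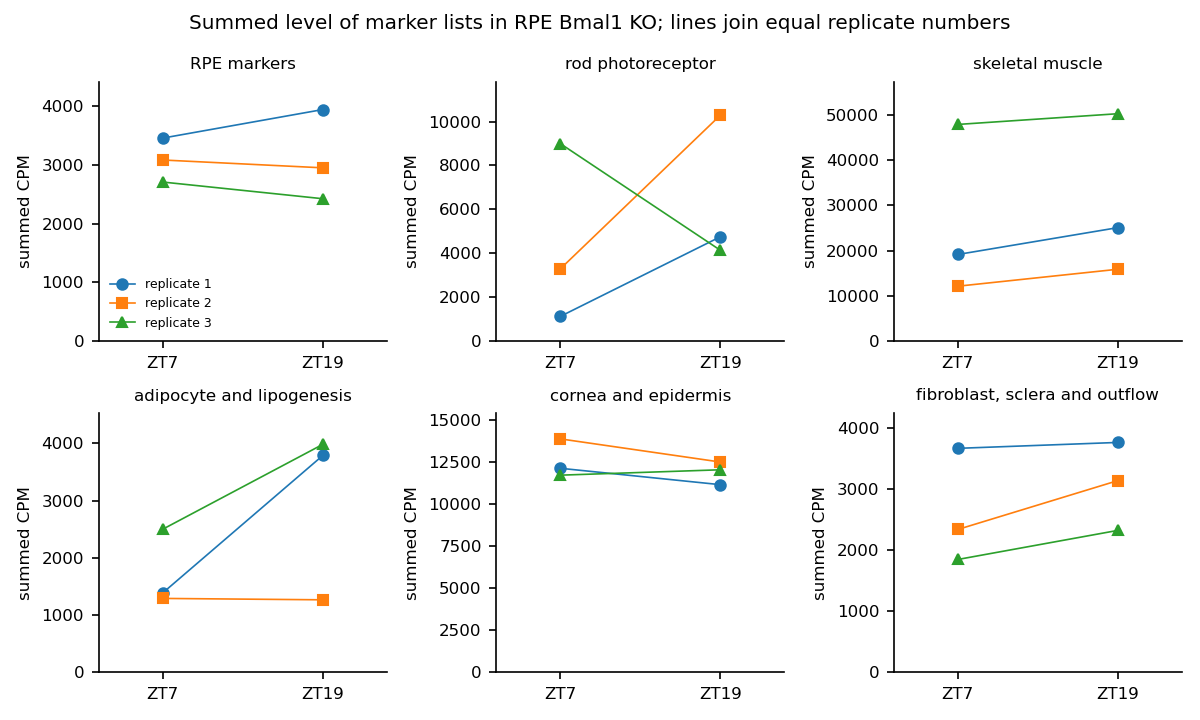
Summed CPM of the genes of 6 marker lists in the RPE Bmal1 KO libraries at ZT7 and ZT19, each axis starting at 0, with lines joining libraries of the same replicate number. Skeletal muscle keeps the order of the numbers at both times, with 47926 and 50301 CPM in the libraries numbered 3, while the rod sums run from 1117 to 10296 CPM and cross.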

How the data were processed

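Ribosomal RNA was depleted and a stranded total RNA library made from each mouse. The authors aligned the reads to mm10 (Bowtie2) and took the reads of each gene from HTSeq (versions 2.3.4 and 0.9.1 in the submitters' processing notes, where the methods name an earlier Bowtie2). The deposited table gives raw counts, and whether strand was used is not given in the sources used here. A further 11 columns, filled in 30 rows, belong to no sample and were left out. The authors' later removal of photoreceptor and choroid genes does not apply to the deposited counts.

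Of 53700 gene identifiers, 1553 did not match GENCODE release 21 and entered library totals only (1.35% to 4.77% of the counts in the 6 libraries). Autosomal genes were kept by filterByExpr (minimum count 10) and tested with the quasi-likelihood test of edgeR 4.0.16 in R 4.3.3, with TMM scaling and Benjamini-Hochberg adjustment over all genes tested. Levels are CPM with TMM scaling over 24 libraries. Groups follow the genotype and time in the sample titles. Without the replicate block, p-values measure the spread between 3 mice at each time. With it, they measure the spread left after the means of the replicate numbers are taken out. Deviations from the group means correlated between same-numbered libraries (r = 0.52, 0.39 and 0.30 over 20500 genes), each best with its own number, so the numbers were treated as pairs. An unlike pair, replicate 3 of ZT7 with replicate 2 of ZT19, had r = 0.18. This pairing by number comes from the data, since no label says what a number marks.

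Genes were named if they belonged to the clock lists, were named by the study, were among the 12 per direction with the smallest p at a mean of at least 1 CPM, or had the smallest p in either direction in a list described. Some genes that meet this rule are not reported here. The members and the 43 lists were chosen with earlier results of these data known. The test was tried on simulated counts. There edgeR recovered 3 of 100 genes changed 2-fold and 46 of 100 changed 4-fold, with 3 false calls. For limma-trend these were 2 and 44 of 100 with 2 false calls, and for DESeq2 16 and 69 of 100 with 33 false calls. The main test thus missed most changes of 2-fold in this setting. Alternatives were other scalings, filters and gene sets, DESeq2 1.42.0, limma-trend (limma 3.58.1, prior count 2), robust estimation, the block, other sets of libraries and leaving out each library. The bias-adjusted method of edgeR, and leaving out each RPE Bmal1 WT library, were added after the data were seen.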

Additional observations from a re-analysis of the deposited data

How the results depend on the processing

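In RPE Bmal1 KO the count of genes called was 0 with median-of-ratios scaling, library size alone, sex chromosomes and mitochondria included, a minimum count of 30, limma-trend, robust estimation, protein-coding genes only, all 24 libraries in the fit and the bias-adjusted method. It was 16 with no filter on low counts, 3 with DESeq2, 3 with the replicate block, 2 (Chil1 and Nr1d1) with all 12 RPE Bmal1 KO libraries, and 0 to 6 with each library left out. The 6 were called without replicate 3 of ZT7, which is also the setting of libraries with Xist over 500 CPM only (6), and are described with the small RNA genes. In RPE Bmal1 WT the main count was 3, against 23 with DESeq2, 72 without the filter, 13 with the block and 0 to 7 with each library left out, with 7 without replicate 1 of ZT7 and 0 without replicate 2 or 3 of ZT7 or of ZT19. For the difference between genotypes it was 21 without the filter and 0 in every other setting run, the block included. The causes were not tested.

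Besides Nr1d1, Dbp and Chil1, whose calls are given with the block in the report, the block changed no call of a named gene. DESeq2, without the block, called these 3 as well (adjusted p = 1.15e-11, 0.000277 and 2.45e-05). On simulated counts it both made more false calls and recovered more of the changed genes than edgeR or limma-trend. The fit without a filter also called Ptgds and Drd4 among the named genes. With each library left out, the log2 difference was 2.41 to 2.88 for Nr1d1, 1.81 to 2.28 for Dbp and -1.78 to -1.50 for Chil1, with no adjusted p under 0.05.

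Of 1620 values for 82 named genes under alternatives, 1548 kept their sign and side of the threshold, 13 gained a call and 59 changed sign, in 21 genes. Library size alone gave 0.013 for Nampt, 0.0095 for Csnk1d, 0.012 for Rora, 0.011 for Klf9 and 0.0069 for Klf10. No filter gave -0.0025 for Fbxl21, -0.012 for Timeless and -0.00053 for Per2. Timeless was at -0.0023 with DESeq2, -0.18 with limma-trend and -0.062 with the block, and Klf13 at 0.0085 with limma-trend. With Xist-high libraries only, Tspan4 was at -0.060, Clock at 0.045, Rora at 0.0019, Timeless at -0.076, Per2 at -0.043 and Cry2 at -0.0011. Leaving out each library gave ranges of -0.088 to 0.41 for Hlf, -0.12 to 0.42 for Slc16a12, -0.24 to 0.23 for Nampt, -0.32 to 0.071 for Csnk1e, -0.042 to 0.19 for Itgb5, -0.23 to 0.10 for Csnk1d, -0.060 to 0.29 for Tspan4, -0.011 to 0.36 for Dnaja1, -0.31 to 0.25 for Clock, -0.029 to 0.13 for Bhlhe41, -0.64 to 0.17 for Usp2, -0.22 to 0.24 for Rora, -1.37 to 0.091 for Drd2, -0.16 to 0.097 for Klf9, -0.19 to 0.33 for Fbxl21, -0.20 to 0.084 for Klf10, -0.29 to 0.32 for Timeless, -0.20 to 0.50 for Elovl6, -0.26 to 0.13 for Klf13, -0.043 to 0.13 for Per2 and -0.0011 to 0.28 for Cry2.

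Depth limits genes near 1 CPM most, since 1 CPM was about 2 counts in the shallowest library. Each time had 3 mice, with 1 male at ZT7 only, and a missed threshold does not show that a gene is level.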

Other observations

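Some small RNA genes, though not their class as a whole, set 6 libraries apart, 5 of them from ZT7. Rny1, a Y RNA gene, was under 100 CPM in 6 of the 24 libraries (1.31 to 33.1 CPM) and at 188 to 5626 CPM in the other 18, and this limit was chosen after the values were seen. The 6 were replicates 1 and 2 of RPE Bmal1 KO at ZT7, all 3 libraries of RPE Bmal1 WT at ZT7, and replicate 2 of RPE Bmal1 WT at ZT1. In the same 6 libraries Rny3, a second Y RNA gene, was at 1.05 to 13.9 CPM against 115 to 1521 CPM in the other 18, the small nucleolar RNA gene Gm26397 at 2.98 to 8.52 CPM against 51.4 to 213 CPM, and the pseudogene Gm6767 at 1.63 to 4.26 CPM against 17.9 to 29.1 CPM. The pseudogene Gm5805 was split by a narrow gap, at 1.70 to 7.33 CPM against 8.25 to 34.1 CPM. The sum over all small nucleolar RNA genes did not set the 6 apart. It ran from 389 to 1458 CPM in them and from 389 to 1684 CPM over all 24 libraries. In RPE Bmal1 KO at ZT7, replicate 3 stood with the 18, at 670 CPM of Rny1. Without that library, the 6 genes called between ZT7 and ZT19 in RPE Bmal1 KO were the small nucleolar RNA genes Gm26397, Gm24616, Gm25117, Gm23442 and Snora78 and the pseudogene Gm5805, all lower at ZT7. The 3 genes called in RPE Bmal1 WT were Gm24616, Gm26397 and Gm6767. The part of this split between libraries in the calls was not tested.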
